A study of Mus musculus with 11 samples.

Results

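The small leucine-rich proteoglycans measured here were the 9 genes Dcn, Bgn, Aspn, Lum, Fmod, Kera, Prelp, Omd and Ogn, taken by gene symbol from the annotation of the array. They were covered by 13 of 25697 probes and were 9 of 16593 gene symbols. RNA came from C2C12 cells, an established line of mouse myoblasts, hybridized to MouseRef-8 v2.0 BeadChips. Day 6 cells (5 samples) had been kept in differentiation medium with a low share of horse serum, in which myoblasts fuse into myotubes, and Day 0 cells (5 samples) were proliferating in growth medium rich in fetal bovine serum. All samples were of this 1 line, no gene was altered in either group, and the submitters described the replicates of each day as independent experiments. The comparison asked how the proteoglycan mRNAs differed between differentiated and proliferating cells.

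Small leucine-rich proteoglycans are secreted matrix proteins with a curved core of leucine-rich repeats, and many of them carry chondroitin, dermatan or keratan sulfate chains. They bind collagen fibrils and set fibril diameter and spacing, and decorin and biglycan also bind growth factors of the TGF-beta family. In skeletal muscle they lie in the connective tissue around the fibers, and decorin is known to bind myostatin, an inhibitor of muscle growth. By sequence and gene structure Dcn, Bgn and Aspn belong to class I, Lum, Fmod, Kera, Prelp and Omd to class II, and Ogn to class III.

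Of the 9 genes, 5 passed the detection filter, Lum through its Day 6 samples alone. All 5 were higher at Day 6 (Dcn, Prelp, Lum, Ogn and Bgn), as were 21.1% of all tested genes. Aspn, Fmod, Kera and Omd were at or near background on both days. A probe counted as detected in a sample when its detection p, the share of negative controls at least as bright, was under 0.05, and it was tested when detected in at least 3 samples of 1 day. Genes that were higher lay beside undetected ones in the genome. In the mouse assembly GRCm38.p6, Dcn, Lum, Kera and the related gene Epyc follow one another on chromosome 10, Ecm2, Aspn, Omd and Ogn on chromosome 13, and Optc, Prelp and Fmod on chromosome 1. Coding genes were ordered by start coordinate, and in that order no other gene came between the members of a group. A longer gene that spans a group would not be seen in this way. On chromosome 10 Dcn and Lum were higher and Kera was undetected, on chromosome 13 Ogn was higher while Omd was detected in 1 sample and Aspn in none, and on chromosome 1 Prelp was higher and Fmod was undetected. Bgn lies on the X chromosome with no other member beside it.

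Promoter sequences of 7 of the 9 genes were found in RefSeq tables of GRCm38.p6, and Dcn and Lum had none. The start regions of Ogn and its neighbor Omd, of Prelp and its neighbor Fmod, and of Bgn are shown because they set a gene that rose beside one at background on the same chromosome, with Bgn as the gene that lies alone. Each runs 5′ to 3′ from 250 bases before the annotated start to 50 bases after it, and capitals mark E-boxes (CANNTG), the motif that MyoD family proteins and other basic helix-loop-helix factors bind. The regions are Ogn at chr13:49607765-49608064 on the plus strand, Omd at chr13:49582212-49582511 on the plus strand, Prelp at chr1:133921352-133921651 on the minus strand, Fmod at chr1:134037004-134037303 on the plus strand and Bgn at chrX:73483351-73483650 on the plus strand.
Ogn: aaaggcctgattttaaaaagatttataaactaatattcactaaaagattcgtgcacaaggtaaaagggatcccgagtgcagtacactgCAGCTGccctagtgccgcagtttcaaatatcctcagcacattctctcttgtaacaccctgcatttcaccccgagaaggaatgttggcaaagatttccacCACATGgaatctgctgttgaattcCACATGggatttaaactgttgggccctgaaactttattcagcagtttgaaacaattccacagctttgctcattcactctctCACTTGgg
Omd: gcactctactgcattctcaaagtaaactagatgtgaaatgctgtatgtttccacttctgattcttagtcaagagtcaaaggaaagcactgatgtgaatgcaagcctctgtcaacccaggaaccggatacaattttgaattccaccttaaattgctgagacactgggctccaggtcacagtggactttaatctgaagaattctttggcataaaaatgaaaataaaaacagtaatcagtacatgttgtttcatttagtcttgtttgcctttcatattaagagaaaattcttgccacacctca
Prelp: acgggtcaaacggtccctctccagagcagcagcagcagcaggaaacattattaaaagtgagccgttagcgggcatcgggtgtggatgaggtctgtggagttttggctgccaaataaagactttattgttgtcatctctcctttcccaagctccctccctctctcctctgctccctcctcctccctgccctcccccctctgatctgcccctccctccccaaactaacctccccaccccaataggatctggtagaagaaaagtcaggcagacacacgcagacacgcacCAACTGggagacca
Fmod: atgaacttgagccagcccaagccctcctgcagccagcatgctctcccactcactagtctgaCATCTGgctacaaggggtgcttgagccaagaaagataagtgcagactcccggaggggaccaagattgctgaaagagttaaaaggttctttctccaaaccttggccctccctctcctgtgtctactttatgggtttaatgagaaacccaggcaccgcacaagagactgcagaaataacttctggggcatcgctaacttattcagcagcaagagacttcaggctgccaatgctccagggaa
Bgn: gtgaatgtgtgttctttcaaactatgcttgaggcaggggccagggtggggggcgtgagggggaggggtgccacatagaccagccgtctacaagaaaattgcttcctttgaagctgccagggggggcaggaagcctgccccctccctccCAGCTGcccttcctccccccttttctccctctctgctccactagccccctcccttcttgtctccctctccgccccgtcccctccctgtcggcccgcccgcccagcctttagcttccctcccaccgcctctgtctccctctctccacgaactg

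The Ogn region held 4 E-boxes, which began 162, 63 and 39 bases before the start and 42 bases after it, and the first of them was CAGCTG. The Omd region held 0. Prelp had 1 E-box, 36 bases after the start, Fmod had 1, 189 bases before it, and Bgn had 1, a CAGCTG 102 bases before it. The regions of Aspn and Kera, both undetected and not shown here, held 2 and 0 E-boxes. Among 32544 mouse promoters of the same 300 bases, 72.3% held CANNTG and 16.4% held CAGCTG, so a match is common. CANNTG and CAGCTG read the same on both strands, and every CAGCTG is also a CANNTG. Matches to the MEF2 site and to the CArG box of serum response factor, searched on both strands, were 0 in all 7 member promoters and present in 3.16% and 1.64% of all promoters. These are matches of letters in a short window and were not tested for binding.

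Across the series, the median signal of a Day 6 array was 57.2 to 64.3 and that of a Day 0 array 56.6 to 62.7. On a Day 6 array 44.7 to 48.7% of probes were detected, and on a Day 0 array 45.9 to 47.4%. Signals were background-corrected and quantile normalized on the log2 scale, and Day 6 was compared with Day 0 by limma over 8659 genes with 1 probe each. The number of arrays limits the precision: samples of the same day varied with an SD of 0.31 at Day 6 and 0.40 at Day 0 over the tested genes, on the log2 scale. Each sample description also names E1, E2, E3 or E4, which is left unexplained there and was treated as a possible batch. Day 6 replicate 1 and Day 0 replicates 1 and 2 are of E1, and Day 6 replicate 2 and Day 0 replicate 3 of E2. Day 6 replicates 3 and 4 and Day 0 replicate 4 are of E3, and replicate 5 of both days is of E4. Day 0 replicate 5, of E4 and averaged over 2 arrays, stood apart from its group. Its Myog value, myogenin being the factor that drives terminal differentiation, was 8.64, between those of the Day 6 samples (9.89 to 10.48) and of the other Day 0 samples (4.45 to 5.75).

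Among the 5 tested proteoglycan genes, 5 were higher at Day 6 and 0 lower (adjusted p under 0.05), where 21.1% of all tested genes were called higher and 24.2% lower. In 4 of them every Day 6 value lay above every Day 0 value, which was so for 15.3% of all tested genes. Lum passed the detection filter through its Day 6 samples alone, so that this count describes the genes and does not support their direction. At the level of probes, 8 of 13 were tested and 8 were higher (20.5% of all tested probes), 6 of them with no overlap (14.7% of all tested probes). The median log2 difference of the 5 genes was 3.33 (3.07 with Lum at a lower bound set by the detected level), beside -0.03 over all tested genes. Ordered by log2 difference among 8659 genes, Dcn was at place 34, Prelp at 66, Ogn at 136 and Bgn at 530. No place is given for Lum, which was undetected in the Day 0 samples. In bulk cultures, more cells of a type and more RNA per cell cannot be told apart.

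**Figure D1:**
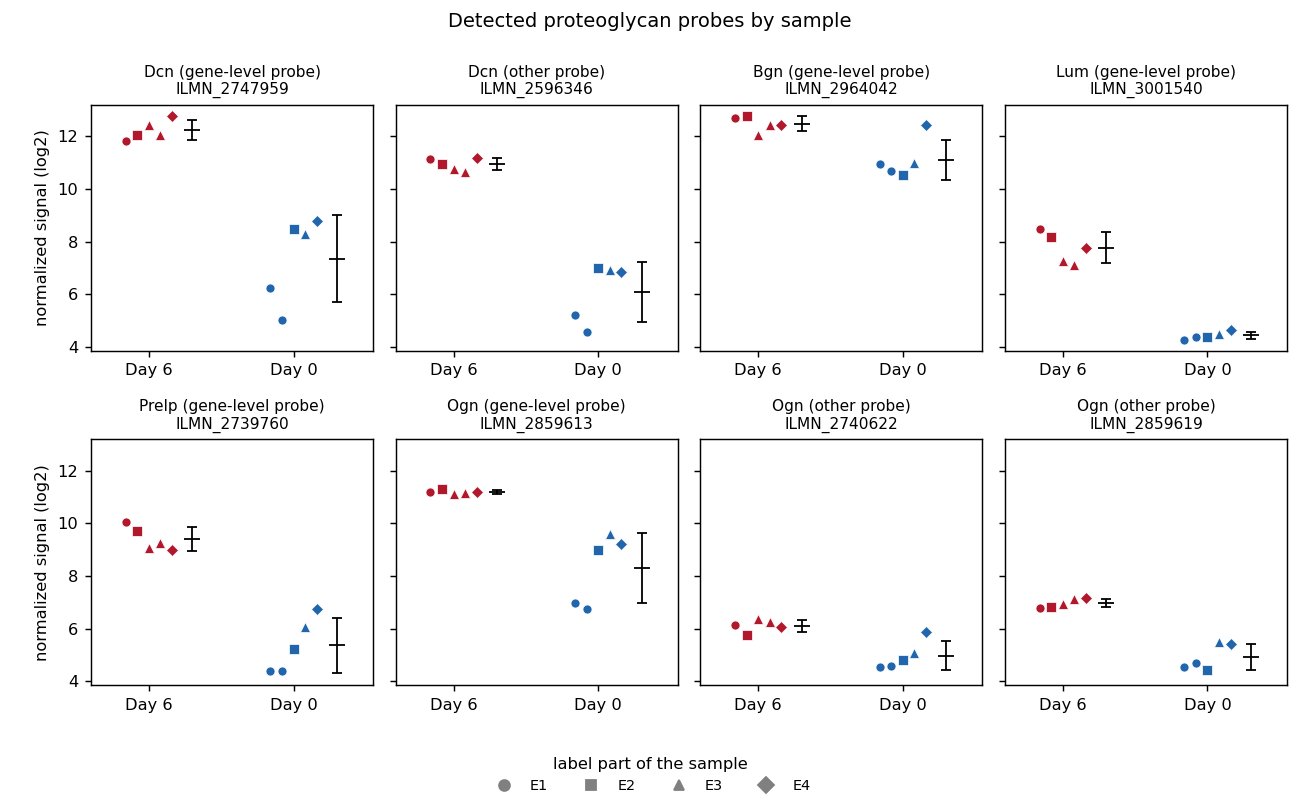
Normalized log2 signal (vertical axis) of the 8 tested proteoglycan probes in each Day 6 (left, red) and Day 0 (right, blue) sample, with the marker shape giving the E1 to E4 part of the label and the black bar the mean with its SD. On the gene-level probes of Dcn, Ogn and Prelp the E1 samples are the lowest at Day 0, and on both Dcn probes, Lum, Prelp and 2 of the 3 Ogn probes no Day 0 value reaches a Day 6 value.

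Dcn encodes decorin, the class I proteoglycan that coats collagen fibrils and binds TGF-beta. Its tested probe (ILMN_2747959) gave log2 signals of 11.81, 12.06, 12.44, 12.05 and 12.77 in Day 6 replicates 1 to 5, against 6.22, 5.01, 8.47, 8.29 and 8.77 in Day 0 replicates 1 to 5. All Day 6 samples were above all Day 0 samples, and the Day 0 samples of E1 were the lowest of all. The mean was 12.23 ± 0.38 at Day 6 and 7.35 ± 1.65 at Day 0 (SD, n = 5 each), a log2 difference of 4.87 (SE 0.60, adjusted p = 1.94e-05 from limma) or 29.3-fold. The two-sided p of an exact permutation test was 0.00794, which is the lowest value possible with groups of 5. In the deposited units this probe gave 3528 to 7122 in the Day 6 samples, against 70.5 to 509.6 in the Day 0 samples. The second Dcn probe (ILMN_2596346) read 11.14, 10.93, 10.77, 10.65 and 11.17 at Day 6, against 5.21, 4.55, 6.98, 6.91 and 6.85 at Day 0, where it was detected in 4 of 5 samples. Its log2 difference was 4.83 (adjusted p = 8.09e-07 over all probes from limma), so both probes moved alike, with the same low pair of Day 0 samples.

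Bgn encodes biglycan, the other growth-factor-binding proteoglycan of class I, which also attaches to the dystrophin complex of the muscle membrane. Its 1 probe (ILMN_2964042) read 12.70, 12.77, 12.04, 12.44 and 12.43 at Day 6, against 10.94, 10.69, 10.53, 10.97 and 12.42 at Day 0. It was detected in every sample of both days, and the groups overlapped through Day 0 replicate 5, which lay above Day 6 replicate 3. The means were 12.48 ± 0.29 at Day 6 and 11.11 ± 0.76 at Day 0 (SD, n = 5 each), a log2 difference of 1.36 (SE 0.30, adjusted p = 0.00227 from limma) or 2.58-fold, with a two-sided exact permutation p of 0.0159. Without Day 0 replicate 5 the difference was 1.69 (adjusted p = 4.69e-06 from limma). Aspn, asporin, a class I member without the usual glycosaminoglycan attachment of the others, had 1 probe with signals of 47.4 to 57 at Day 6 and 47.9 to 55.3 at Day 0. It was detected on no array, with a lowest detection p of 0.192 at Day 6 and 0.392 at Day 0.

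Lum encodes lumican, a class II keratan sulfate proteoglycan best known for ordering the collagen of the cornea. Its probe (ILMN_3001540) read 8.49, 8.18, 7.26, 7.12 and 7.77 at Day 6, against 4.28, 4.38, 4.39, 4.50 and 4.63 at Day 0. It was detected in all 5 Day 6 samples and in 0 of 5 Day 0 samples, though 1 of the 2 arrays of Day 0 replicate 5 passed. As no Day 0 sample passed detection, only a bound can be given for the size: Lum was at least 8.39-fold higher at Day 6, setting its Day 6 mean against the dimmest level detected on each Day 0 array. The fitted log2 difference of 3.33 (SE 0.24, adjusted p = 1.52e-07 from limma, exact permutation p = 0.00794) depends on the background step, since the Day 0 signals (52.8 to 59.0) lay close to the array medians, and without background correction it was 1.94 (adjusted p = 1.37e-05 from limma). In the deposited units the Day 6 signals were 143.0 to 386.7.

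Prelp encodes a class II protein with a basic, proline- and arginine-rich end that binds heparan sulfate and anchors basement membranes to collagen. Its probe (ILMN_2739760) read 10.06, 9.71, 9.06, 9.25 and 8.99 at Day 6, against 4.39, 4.39, 5.22, 6.07 and 6.73 at Day 0, where it was detected in 3 of 5 samples. The Day 0 samples of E1 were the pair that was undetected. The means were 9.41 ± 0.46 at Day 6 and 5.36 ± 1.04 at Day 0 (SD, n = 5 each), a log2 difference of 4.05 (SE 0.41, adjusted p = 3.39e-06 from limma, exact permutation p = 0.00794) or 16.6-fold.

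The remaining class II genes gave no signal that could be tested. Fmod, fibromodulin, which binds the same collagen fibrils as lumican and is abundant in tendon and cartilage, had 2 probes, with signals of 43.0 to 53.9 in Day 6 samples and 48.2 to 57.3 in Day 0 samples, and were detected on no array. Kera, keratocan, known from the cornea, had signals of 44.2 to 54.7 at Day 6 and 43.6 to 55.6 at Day 0, also with no array detected. Omd, osteomodulin, which binds the mineral of bone, had signals of 53.0 to 66.3 in Day 6 samples and 55.2 to 62.0 in Day 0 samples. It was detected in 1 of 5 Day 6 samples and 0 of 5 Day 0 samples. Tested among 16593 genes with no detection filter, the log2 differences of Aspn, Fmod, Kera and Omd were 0.02, 0.02, -0.03 and 0.07 (adjusted p of 0.713 to 0.894 from limma). A probe at background on both days does not measure how its mRNA differed.

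**Figure D2:**
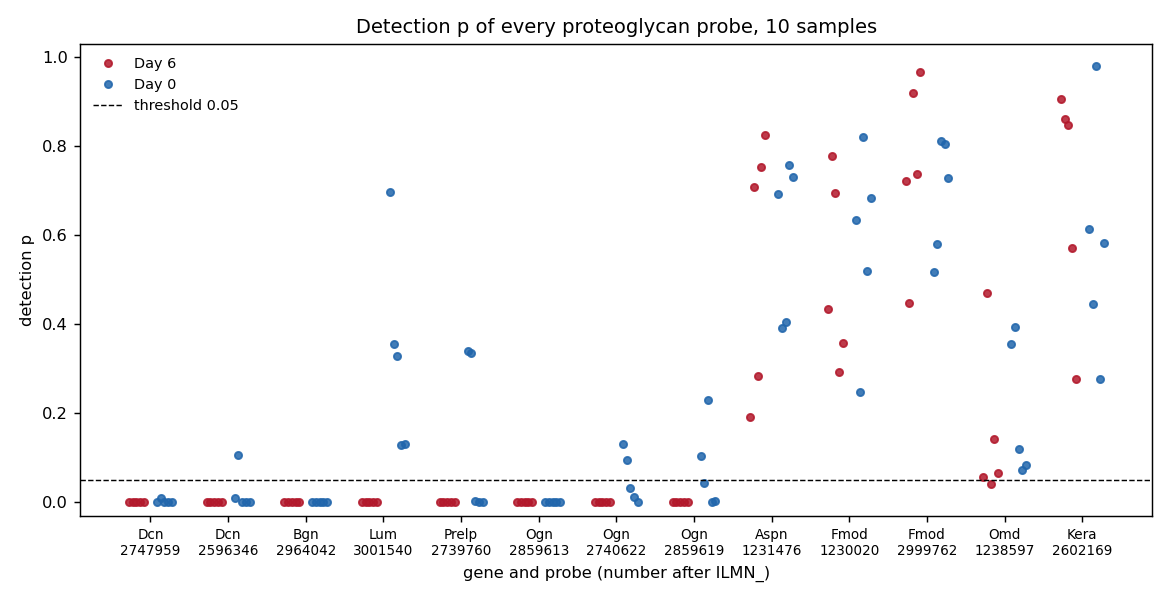
Detection p (vertical axis, linear) of the 13 proteoglycan probes in the 5 Day 6 (red) and 5 Day 0 (blue) samples, with the threshold of 0.05 dashed. Dcn, Bgn, Lum, Prelp and Ogn lie under the threshold in every Day 6 sample, Lum lies above it in every Day 0 sample, and Aspn, Fmod and Kera lie above it on both days.

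Ogn encodes osteoglycin, also called mimecan, a class III member found in many connective tissues. Its brightest probe (ILMN_2859613) read 11.19, 11.29, 11.11, 11.16 and 11.17 at Day 6, against 6.97, 6.75, 8.98, 9.61 and 9.21 at Day 0. The Day 6 values spanned less than those of any other tested proteoglycan probe, while at Day 0 the E1 samples lay below the other samples. The log2 difference was 2.88 (SE 0.48, adjusted p = 0.000263 from limma, exact permutation p = 0.00794) or 7.36-fold. A second probe (ILMN_2859619) read 6.80, 6.82, 6.94, 7.12 and 7.16 at Day 6, against 4.56, 4.69, 4.43, 5.49 and 5.41 at Day 0, a log2 difference of 2.05 (adjusted p = 4.69e-06 from limma) with no overlap. The third (ILMN_2740622) read 6.16, 5.75, 6.36, 6.24 and 6.05 at Day 6, against 4.53, 4.59, 4.83, 5.07 and 5.86 at Day 0. Its groups overlapped through Day 0 replicate 5, and its log2 difference was 1.14 (adjusted p = 0.00133 from limma, exact permutation p = 0.0159). All 3 Ogn probes moved the same way by unequal amounts, and both dimmer probes were detected in 3 of 5 Day 0 samples. Without background correction their differences were 1.10 and 0.53. Of the class III relatives, Epyc and Optc were detected on no array of either day.

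Within the parts of the label that hold both days, the fitted difference was above 2 on the log2 scale in each of E1 to E4 for Dcn, Lum and Prelp. As no Day 0 sample detected Lum, the size of its differences depends on the background step. Dcn differed by 6.19, 3.58, 3.96 and 4.01 in E1, E2, E3 and E4. For Lum the values were 4.16, 3.79, 2.69 and 3.14. Prelp had 5.67, 4.48, 3.08 and 2.25, the first of them set against undetected Day 0 samples, and Ogn had 4.33, 2.31, 1.52 and 1.96. These 4 genes differed most in E1. Its Day 0 samples were the lowest for Dcn, Prelp and Ogn, and its Day 6 sample was the highest for Lum (8.49) and Prelp (10.06). Bgn had 1.88, 2.24, 1.27 and 0.01, the last from 12.43 in the Day 6 sample and 12.42 in the Day 0 sample of E4. With E1 to E4 as a block all 5 genes kept their calls, at log2 differences of 4.53 for Dcn, 3.44 for Lum, 3.95 for Prelp, 2.59 for Ogn and 1.38 for Bgn (adjusted p of 0.00168 or less from limma). Without the E1 samples the differences were 3.82, 3.08, 3.24, 1.92 and 1.11, and for Bgn the adjusted p was 0.0460 from limma.

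**Figure D3:**
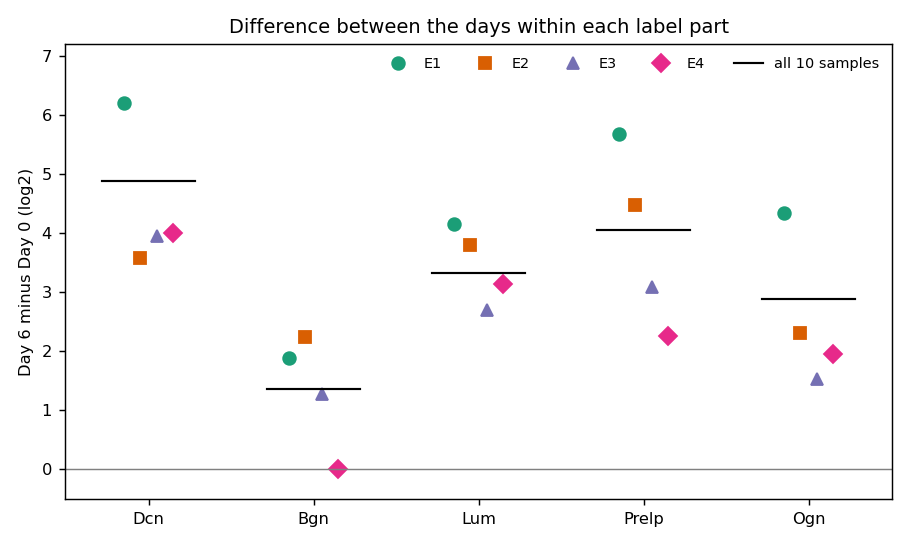
Day 6 minus Day 0 on the log2 scale (vertical axis) for the 5 tested proteoglycan genes within each of E1 to E4, with a black line at the difference over all 10 samples. The values of Dcn, Lum, Prelp and Ogn all lie above 1, and that of Bgn in E4 lies at 0.01. Those of Lum are set against Day 0 samples in which it was undetected.

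The Day 0 samples differed among themselves in 2 ways. The E1 samples were low: their highest Dcn value was 6.22, against a lowest of 8.29 in the other Day 0 samples, their highest Ogn value (brightest probe) was 6.97, against 8.98, and their highest Prelp value was 4.39, against 5.22. Bgn did not share this order, with 10.94 and 10.69 in the E1 samples and 10.53 in the sample of E2. Day 0 replicate 5 was high in muscle markers other than Mef2c. Its summed normalized intensity over 8 markers was 12660, between the Day 6 samples (32560 to 40000) and the other Day 0 samples (3462 to 4601). Mef2c was lowest at Day 0 in this sample (6.80, against 7.35 to 7.85 in the other Day 0 samples). Day 0 replicate 5 also had the highest Day 0 value on the gene-level probes of Bgn, Dcn, Prelp and Lum. For Bgn this value was 12.42, against a next highest of 10.97, for Prelp 6.73, against 6.07, and for Dcn 8.77, against 8.47. For Ogn it was second, with 9.21, against 9.61 in Day 0 replicate 4, and Lum was undetected in it. Of these values, that of Bgn reached the Day 6 range. The E1 samples also had the lowest Myog values (4.45 and 4.63, against 5.67 to 8.64 in the other Day 0 samples). Mymk, Tnnt3 and Acta1 were lowest in them as well, but Mef2c was highest (7.85 and 7.63, against 6.80 to 7.53). Des and Ckm did not set the E1 samples apart. Des was 11.61 and 11.56 in them and 11.58 in the Day 0 sample of E3. Ckm, detected in 1 Day 0 sample, was 4.30 and 4.23 in them and 4.21 in that of E3. The Myod1 values of the E1 samples (7.84 and 7.64) lay within the range of the other Day 0 samples (6.56 to 9.07). The part of the muscle markers in the proteoglycan values was not tested.

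**Figure D4:**
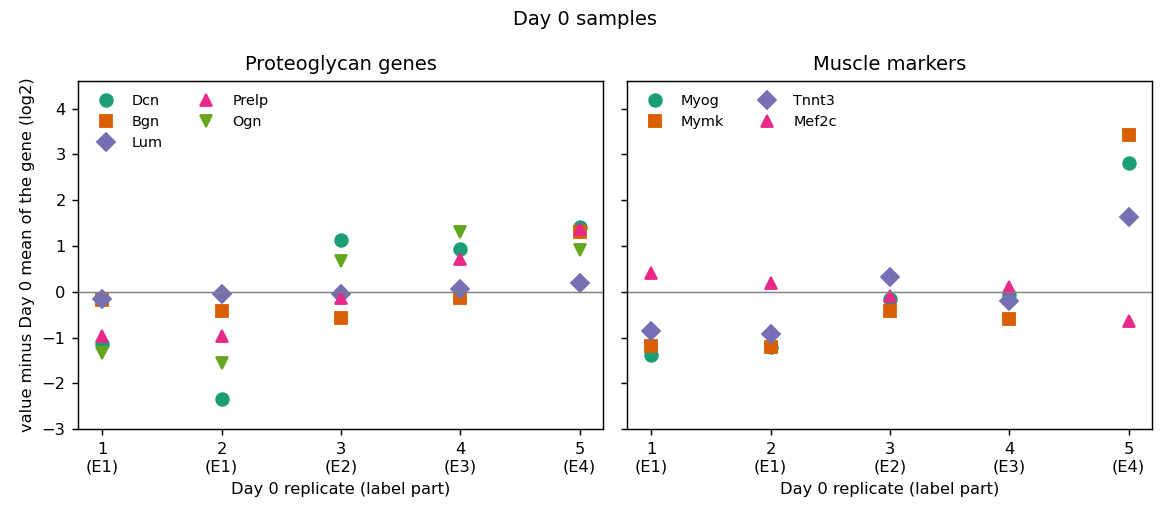
Log2 value of each Day 0 sample minus the Day 0 mean of the gene (vertical axis), by replicate and label part, for the 5 tested proteoglycan genes (left panel) and 4 muscle markers (right panel). Dcn, Ogn and Prelp are lowest in the E1 samples, and Bgn, Dcn, Prelp, Lum, Myog, Mymk and Tnnt3 are highest in replicate 5. Mef2c is lowest in replicate 5 and highest in the E1 samples.

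Genes with the most similar profile over the 10 samples were found by the root mean square difference of gene-centered log2 values. Nearest to Dcn were the fast troponin subunit Tnni2 (0.546), the myosin light chain Myl1 (0.611) and C1qtnf3 (0.678). Nearest to Lum were the scavenger receptor Scara5 (0.228), the transcription factor Trp63 (0.242) and the muscle ankyrin repeat gene Ankrd23 (0.254). Lum was undetected in the Day 0 samples, so every distance of Lum rests in part on background values. Nearest to Prelp were Igdcc4 (0.415), the actin-capping gene Tmod1 (0.431) and Scara3 (0.478), and nearest to Ogn were Ly6c1 (0.448), Macrod1 (0.477) and the autophagy gene Map1lc3a (0.522). Among the proteoglycans themselves the closest pair was Lum and Prelp at 0.711, or Ogn and Prelp at 0.764 with Lum set aside. The farthest pair was Dcn and Bgn at 2.02. These distances describe 10 samples of 2 groups and mostly follow the difference between the days.

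Genes that act with the proteoglycans were followed in lists chosen with earlier results of these data known, and no list was tested as a whole. Over all tested genes 21.1% were called higher and 24.2% lower. A gene could pass the detection filter through 1 day alone, as Chst11 did through Day 0 and Tgfb2 through Day 6. Counts that hold such genes describe the genes and do not support their direction. Most enzymes that build chondroitin and dermatan sulfate were not called. Of 16 tested, 1 was higher, 3 were lower and 12 were not called, with a median log2 difference of -0.28. Csgalnact1, which starts the chondroitin chain, fell by 1.26 (adjusted p = 0.000318) and the chondroitin 4-O-sulfotransferase Chst12 fell by 0.69 (adjusted p = 0.0188), while Chst15, which adds a further sulfate to chondroitin, rose by 1.07 (adjusted p = 0.00319, all from limma). The dermatan sulfate epimerases Dse and Dsel were detected in 0 samples, and Chst7 differed by 0.03 (adjusted p = 0.943). For keratan sulfate, the chain of lumican and fibromodulin, 4 genes were tested, 0 were higher and 2 were lower. Chst5, detected in 4 Day 6 and 0 Day 0 samples, narrowly missed the threshold (log2 difference 0.41, adjusted p = 0.0501 from limma). The count of higher genes was 1 with normexp background correction fitted without controls, and 1 with the deposited Z-scores. The sulfotransferase Chst1 averaged 8.39 ± 0.75 at Day 6 and 10.66 ± 0.10 at Day 0 (SD, n = 5 each), a log2 difference of -2.27 (adjusted p = 2.38e-05 from limma) with no overlap. Chst2, which sulfates N-acetylglucosamine, differed by -1.38 (adjusted p = 0.00765 from limma, and 0.0864 without the E1 samples). Of 8 genes that supply sugar nucleotides and activated sulfate, 2 fell, the sulfate donor transporter Slc35b3 by 1.31 and the sulfate donor synthase Papss1 by 1.06, and 1 rose, Ugp2 by 0.88, which was not called with equal array medians (adjusted p = 0.0834).

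Of 9 tested collagens that the proteoglycans bind, 3 were higher, 0 lower and 6 not called, with a median log2 difference of 0.54. Of all tested genes 21.1% were higher. Col6a2, a chain of the microfibrillar collagen VI that decorin and biglycan bind, averaged 8.24 ± 1.30 at Day 6 and 5.99 ± 0.94 at Day 0 (SD, n = 5 each), a log2 difference of 2.25 (adjusted p = 0.00531 from limma). Its partner chain Col6a1 averaged 10.94 ± 1.16 at Day 6 and 8.90 ± 1.15 at Day 0 (SD, n = 5 each), a log2 difference of 2.04 (adjusted p = 0.0104 from limma). The days overlapped for both chains. The third was Col5a2 at 0.54 (adjusted p = 0.0454), which was not called in 13 of 24 alternatives. The fibril collagens Col1a1 and Col3a1 had differences of 1.65 and 1.02 that did not pass (adjusted p = 0.0801 and 0.0509 from limma), and they passed in 5 and 8 of 25 alternatives. The count of higher collagens was 6 without Day 0 replicate 5, 5 with E1 to E4 as a block, 1 with no detection filter and 0 without the E1 samples.

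Growth factors and receptors linked to decorin or biglycan were called in both directions. Of 17 tested, 8 were higher, 2 lower and 7 not called, where 21.1% of all tested genes were higher and 24.2% lower. The median log2 difference of the list was 0.58. Tlr2, an innate immune receptor for soluble biglycan, averaged 9.28 ± 0.51 at Day 6 and 6.64 ± 0.31 at Day 0 (SD, n = 5 each), a log2 difference of 2.64 (adjusted p = 1.18e-06 from limma). Tgfb3 differed by 2.43 (adjusted p = 1.09e-06) and the receptor Tgfbr2 by 1.37 (adjusted p = 0.000386), while Met, the receptor of hepatocyte growth factor, fell by 1.62 (adjusted p = 0.000211, all from limma). Tlr4 had a difference of 0.35 and Lrp1, an endocytic receptor for decorin, one of -0.01 (adjusted p = 0.215 and 0.988). With equal array medians, which moved the median of all genes to -0.13, the count of higher genes in this list was 4. Of 10 tested proteases and helpers that cleave the proteoglycans or trim their propeptides, 7 were higher and 0 lower, with a median of 0.89. With equal array medians 5 were higher and 1 lower. Mmp3 (detected in 4 Day 6 and 0 Day 0 samples) and Adamts5 (5 and 2) passed the filter through Day 6 alone. The count of higher proteases therefore does not support their direction. The gelatinase Mmp2 rose by 1.59 (adjusted p = 0.00121), the membrane protease Mmp14 by 0.90 (adjusted p = 4e-04) and the aggrecanase Adamts5 by 1.23 (adjusted p = 0.000327, all from limma). Mmp3 passed detection on no Day 0 array. It was at least 2.00-fold higher at Day 6, setting its Day 6 mean against the dimmest level detected on each Day 0 array. Its adjusted p from limma was 0.0132, and 0.0586 with no detection filter.

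Proteoglycans outside the leucine-rich group showed no common direction. Of 12 tested, 4 were higher, 1 was lower and 7 were not called, with a median log2 difference of -0.12. The shares over all tested genes were 21.1% higher and 24.2% lower. The counts of this list were 1 higher and 2 lower with equal array medians, 1 higher with the deposited Z-scores or without the E1 samples, and 2 higher without background correction. The heparan sulfate proteoglycan Sdc2 rose by 1.54 (adjusted p = 2.61e-05) and the hyaluronan receptor Cd44 fell by 1.79 (adjusted p = 9.87e-06, both from limma). Hspg2, perlecan, to which PRELP binds, differed by 0.66 (adjusted p = 0.0448 from limma) and was not called in 15 of 25 alternatives. Of the further leucine-rich relatives, Podnl1 was the 1 of 7 with a tested probe and differed by -0.06 (adjusted p = 0.837), and Epyc, Optc, Ecm2, Chad, Nyx and Podn were detected on no array.

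**Figure D5:**
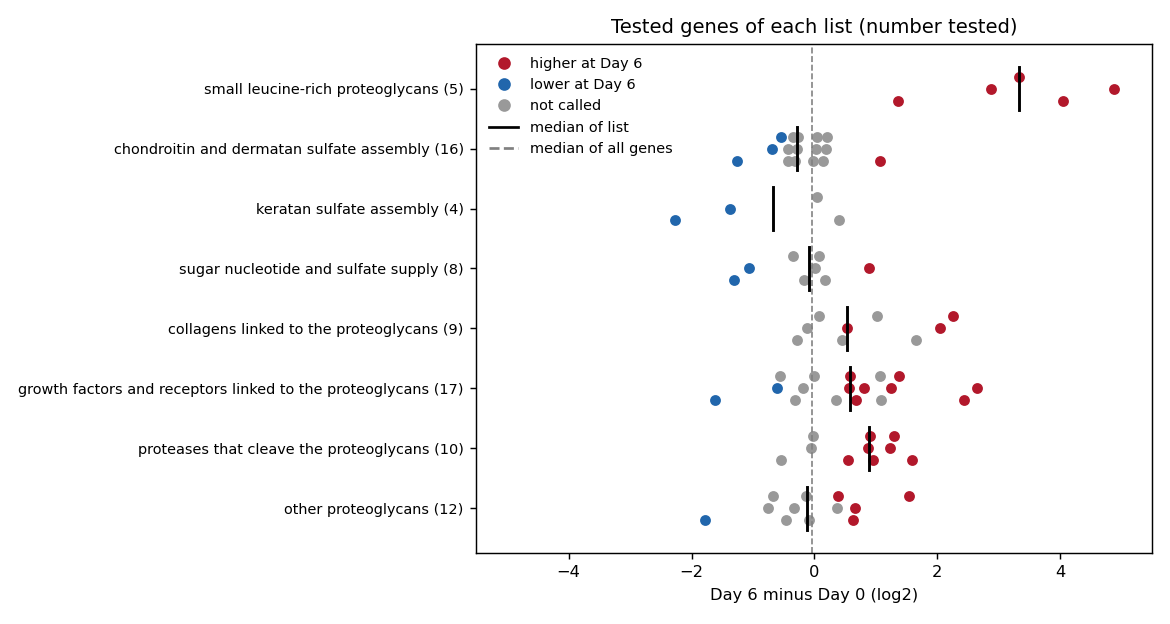
Day 6 minus Day 0 on the log2 scale (horizontal axis) for each tested gene of the proteoglycans and 7 partner lists, colored by call, with a black line at the median of the list and a dashed line at the median of all tested genes. The proteoglycan median is 3.33, and the medians of the other lists run from -0.67 for keratan sulfate assembly to 0.89 for the proteases.

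Because small leucine-rich proteoglycans are abundant in fibroblasts, tendon, cartilage and bone, markers of these and other cell types were read beside them. Of 8 muscle markers with a probe, 8 were higher at Day 6, beside 21.1% of all tested genes. Among them were the fusion gene Mymk by 5.61, the fast troponin Tnnt3 by 5.40 and the actin Acta1 by 5.25. Ckm, also among them, was detected in 5 Day 6 samples and 1 Day 0 sample, so it passed the filter through Day 6 alone. Of 9 fibroblast and adventitial markers with a probe, 4 were tested and 2 were higher. Pi16, detected on no Day 0 array, passed the filter through Day 6 alone and was higher at Day 6 by at least 2.71-fold. Counts that hold Ckm or Pi16 do not support a direction. Pdgfra differed by 0.64 (adjusted p = 0.00936 from limma, 0.0925 with equal array medians and 0.0995 without the E1 samples). Pdgfrb and Cd34 differed by 0.92 and 0.43 and were not called (adjusted p = 0.0866 and 0.443 from limma). Dpt and Col15a1 were each detected in 2 Day 6 and 0 Day 0 samples, Dpp4 in 1 and 0, and Thy1 and Tcf21 in 0 samples of either day. This list summed to 216 to 431.1 in the Day 6 samples and 88.3 to 244.2 in the Day 0 samples. Of 6 tendon markers 2 were tested and 1 was higher, Scx by 0.69 (adjusted p = 0.0335 from limma, not called in 9 of 25 alternatives). Egr2 differed by 0.11 and was not called (adjusted p = 0.76 from limma). Tnmd, Mkx and Fibin were detected in 0 samples and Thbs4 in 1 Day 0 sample. The tendon sums were 656.5 to 1271 at Day 6 and 491.5 to 770.3 at Day 0.

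Of 8 cartilage markers 1, Sox9, was tested, with a difference of -0.57 (adjusted p = 0.205), and Acan, Col2a1 and Comp were detected in 0 samples. The cartilage list summed to 73.8 to 150.0 in the Day 6 samples and 86.5 to 325.5 in the Day 0 samples. Of 6 bone markers 2 were tested and 1 was higher, Bglap by 2.73 (adjusted p = 3.55e-06 from limma). Alpl differed by -0.12 and was not called (adjusted p = 0.493 from limma). Ibsp and Dmp1 were detected in 0 samples, Sp7 in 1 Day 6 and 2 Day 0 samples, and Phex in 0 and 1. The bone sums were 238.1 to 323.7 at Day 6 and 57.2 to 108.6 at Day 0. Among 6 fat markers Lpl rose by 1.08 (adjusted p = 0.00814 from limma, 0.0540 with equal array medians and 0.122 without the E1 samples) and Pparg fell by 1.19 (adjusted p = 0.00224), Adipoq and Plin1 were detected in 0 samples, and the sums were 416.4 to 965.1 at Day 6 and 318.5 to 526.4 at Day 0. Of 4 immune markers 0 were tested, and the sums were 19.6 to 39.7 (Day 6) and 19.7 to 23.8 (Day 0). A sum leans on the brightest gene of its list. At Day 6 this was Scx for tendon (mean log2 signal 9.62), Sox9 for cartilage (6.43), Bglap for bone (8.10) and Lpl for fat (9.07). The part of any of these cell types in the proteoglycan differences was not tested.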

How the data were processed

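RNA of C2C12 cells was labeled and hybridized to MouseRef-8 v2.0 BeadChips, and the authors extracted signals with GenomeStudio 2011.1 per the labels. The deposited signals are bead-averaged probe intensities, neither background-subtracted nor normalized. Each has a detection p-value from the authors' software. The deposited Z-score of a probe, a score the authors computed from the log signals of each array, was recomputed within 0.005 from the signals. Every signal column was matched to a sample.

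The neqc function of limma 3.58.1 (R 4.3.3, version 1.17.8 of data.table; offset 16) was used for background correction, with negative controls inferred from the detection p, and for quantile normalization. The repeat array of Day 0 replicate 5 was then averaged with the first, leaving 10 samples from 11 arrays. Probes with a detection p under 0.05 in at least 3 samples of 1 day were kept (12753). Of 25697 probes, 23978 had 1 gene symbol, 0 had several and 1719 had none. Each gene was read by the kept probe of highest mean. limma (lmFit, eBayes, no covariates) was run on these 8659 genes and again on all kept probes, with Benjamini-Hochberg adjustment and a threshold of 0.05. Exact permutation tests of single probes were two-sided. Where no array of a day detected a probe, or for Lum no sample, the fold is a lower bound. It sets the mean of the other day against, on each array, the higher of the lowest detected signal and the signal of the probe itself.

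The genes and lists were chosen with earlier results of these data known. Genes named were all 9 proteoglycans with every probe, in each other list up to 3 called genes with the largest difference and up to 1 with the smallest, and the 3 nearest profiles of Dcn, Lum, Prelp and Ogn. Others, among them Tgfbr2, Mmp14, Col1a1, Col3a1, Tlr4, Sox9, Myog and the undetected genes, were named after their values were seen.

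Promoters were read from RefSeq sequences of GRCm38.p6 with Python 3.11.15 (pandas 2.3.3, matplotlib 3.10.9 for plots). The fit was tested on simulated data with known changes. Alternatives concerned the background step (none, or normexp fitted without controls), the scaling (equal array medians, or the deposited Z-scores), the filter (none, or detection in all 10 samples), the arrays of Day 0 replicate 5 (each alone), blocks (replicate number, or E1 to E4), a robust variance trend, the choice of probe (largest SD, or every kept probe) and the samples (each left out in turn). Leaving out both E4 samples and leaving out the E1 samples were added after the data were seen.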

Additional observations from a re-analysis of the deposited data

Results flagged for a closer look

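Bgn stood out at Day 0. Its value in Day 0 replicate 5 was 12.42, and the nearest of the other Day 0 samples was at 10.97, a gap too large for a group of 5 by Dixon's test. Of 16 groups examined (8 probes on 2 days), 1 was marked in this way, and chance marks about 1 in 20 groups. The 2 arrays of this sample read 12.51 and 12.34 for Bgn.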

How the results depend on the processing

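The log2 differences of the 5 proteoglycan genes kept their direction and their call in all alternatives in which they were tested. With detection required in all 10 samples, 3 genes were called higher in place of 5, because Lum and Prelp were then not tested. Without any 1 sample the count of higher genes was 5 to 5 and of lower genes 0 to 0. Apart from the Z-scores, which are on another scale, the difference was 3.82 to 5.23 for Dcn, 2.93 to 4.50 for Prelp, 1.94 to 3.49 for Lum, 1.92 to 3.21 for Ogn and 1.11 to 1.70 for Bgn. The lowest values came without background correction for Lum and Prelp and without the E1 samples for Dcn, Ogn and Bgn, alternatives of which the last was chosen after the data were seen. With the replicate block 5 genes were higher and 0 lower, and no call of a proteoglycan gene changed. Same-numbered samples shared the E part for numbers 1, 4 and 5 but not 2 and 3, and nothing in the labels pairs them. They deviated from their group means with correlations of -0.24 to 0.18, and 1 of 5 Day 6 samples and 0 of 5 Day 0 samples matched its own number best. Over all genes 3923 were called, 2760 without the E1 samples and 4337 without Day 0 replicate 5. Over the probes of these genes, none of 195 values in the alternatives lost its call. Aspn, Fmod, Kera and Omd lay at background, which limits what could be measured for them.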
